A study of Mus musculus with 4 samples.

Results

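The 10 genes described here, Pou5f1, Nanog, Sox2, Utf1, Tdgf1, Zfp42, Dppa3, Dppa4, Dppa5a and Klf4, are genes of the pluripotency network, taken by symbol from the 31053 genes of the count matrices. They were followed in germ cells of the fetal gonad, in the other cells of the same libraries and in cells made from embryonic stem cells (ESCs). A cell was counted as a germ cell when at least 2 of the 3 germ cell genes Dazl, Ddx4 and Dnd1 had a UMI (a unique molecular identifier, which marks 1 captured transcript). Among the cells that passed the study's limits on detected genes and on mitochondrial reads, this gave 149 germ cells of 2101 cells at E11.5 and 438 of 2764 at E12.5, but only 8 of 3837 at E10.5 and 3 of 2285 in the ESC-derived library. None of the 10 genes was used to choose the cells.

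The study profiled 4 single-cell libraries, 1 per condition, all titled XY. Gonads of ICR embryos (E10.5, E11.5, E12.5) were run with the v2 chemistry, the E10.5 tissue including dorsal mesenchyme and the later tissue being freed of mesonephros. The ESC-derived library came from day 6 (D6) of culture of 1 line, N271S9C, given as C57BL/6J in the label but derived, by the study's methods, from a cross of 129X1/SvJ females with C57BL/6J reporter males. It carries the transgenes the label spells Nr5a1-hCD27a and Sox9-2A-CGFP. Those ESCs were kept on feeder cells before feeder-free passages, turned into epiblast-like cells with FGF2 and Activin A, and aggregated with CHIR99021, BMP4 and EGF. Retinoic acid, Sonic hedgehog and PD0325901 were given next, with EGF and BMP4 kept in the medium. BMP4, FGF9 and IWR1 followed from day 4, and the Nr5a1 reporter cells were enriched on magnetic beads and run with the v3 chemistry. Strain, culture, enrichment and chemistry therefore all differ between the embryonic libraries and D6 and cannot be told apart. The protocol text in the labels speaks of female tissue, against the titles, and the titles were followed.

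The cells kept held 32508523, 24625441, 34173977 and 11906360 UMIs at E10.5, E11.5, E12.5 and D6, with a median per cell of 8167, 11926, 10946 and 4607. Pairs of embryonic libraries shared 7 to 15 barcodes among the kept cells, and D6 shared 0 with any of them. With 1 library per condition no difference between days or conditions could be tested. The intervals given are 95% intervals for counting error only (exact Poisson for levels, exact binomial for shares and ratios), and levels are CPM, the UMIs of a gene in a set of cells per 1000000 UMIs of those cells. Values of different genes are given side by side and are not ranked by level.

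Pluripotency rests on a small set of transcription factors, with Pou5f1 (Oct4), Nanog and Sox2 at its centre, that hold the early embryo's cells and ESCs in an undifferentiated state. Primordial germ cells of the mouse keep or regain much of this program while they migrate to the gonad, and lose it once they enter meiosis or mitotic arrest as oogonia or prospermatogonia. The same genes are therefore used both to find germ cells in a gonad and to look for ESCs that escaped differentiation in a culture.

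The germ cells chosen by the rule carried the other genes expected of their label. The 3 rule genes chose the cells, so their own shares lend the label no support. Dazl was detected in 98.7% of the E11.5 and 100% of the E12.5 germ cells, Ddx4 in 70.5% and 84.0% and Dnd1 in 87.9% and 89.3%. Of 16 further germ cell genes, among them Mael, Stk31, Nanos3 and Kit, at least 3 were detected in 143 of the 149 cells and in 437 of the 438. In the 3 D6 cells that met the rule 1 UMI of this list was found, so these cells are called by the rule and not as germ cells. The summed marker level of supporting cells was 52.8 CPM in the E11.5 germ cells and 31.7 in those of E12.5, against 1192 and 2554 in the other cells. Median depth was 18805 UMIs per germ cell at E11.5 and 18795 at E12.5.

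In the GRCm38 annotation (GENCODE vM21) all 10 are protein-coding genes. Pou5f1 lies at chr17:35506018-35510772 on the plus strand, Nanog at chr6:122707489-122714633 (plus), Dppa3 at chr6:122626410-122630272 (plus) and Sox2 at chr3:34650405-34652461 (plus). Utf1 lies at chr7:139943789-139945112 (plus), Tdgf1 at chr9:110939603-110946158 (minus), Zfp42 at chr8:43295063-43306980 (minus), Dppa4 at chr16:48283733-48294237 (plus), Dppa5a at chr9:78367052-78368177 (minus) and Klf4 at chr4:55527143-55532466 (minus). Nanog and Dppa3 thus sit close together on chromosome 6. Sox2 lies within Sox2ot on the same strand, and Pou5f1 overlaps the antisense gene Gm19553. Copies with at least 90% identity over 300 bases were annotated for Tdgf1 (3 genes), Dppa3 (2), Dppa4 (2) and Dppa5a (8), so that counts of these 4 genes are less certain than those of the other 6, for which no such copy was found. Among the genes of the count matrices were 2 of the Dppa5a copies and 0 of those of Tdgf1, Dppa3 and Dppa4. Whether the copies changed any count was not tested.

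Promoters of 4 of the genes are printed to show how unlike their start regions are, from 250 bases before to 50 bases after the start, as RefSeq gives them for GRCm38.p6. RefSeq entries were matched for 7 of the 10 genes, with 9 promoters. Nanog and Zfp42 were detected in germ cells and at traces elsewhere, whereas Utf1 and Klf4 also had levels in somatic cells that are described further on. Capitals mark a match to the composite SOX-OCT motif (TTGTN followed directly by ATGCAAA) in Nanog and to the octamer ATGCAAAT in Zfp42, both read on either strand.
Nanog (chr6:122707239-122707538, plus): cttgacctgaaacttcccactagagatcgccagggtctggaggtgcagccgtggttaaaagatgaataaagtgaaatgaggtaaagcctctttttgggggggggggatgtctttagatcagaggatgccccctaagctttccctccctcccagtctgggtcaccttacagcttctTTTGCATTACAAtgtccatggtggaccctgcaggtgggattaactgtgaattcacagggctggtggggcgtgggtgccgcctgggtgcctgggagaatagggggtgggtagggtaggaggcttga
Zfp42 (chr8:43306960-43307259, minus): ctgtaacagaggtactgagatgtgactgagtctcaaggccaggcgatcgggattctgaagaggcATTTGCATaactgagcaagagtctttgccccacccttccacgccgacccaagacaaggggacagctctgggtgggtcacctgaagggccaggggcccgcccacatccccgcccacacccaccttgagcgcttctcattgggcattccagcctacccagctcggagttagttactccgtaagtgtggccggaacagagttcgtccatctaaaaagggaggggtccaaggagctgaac
Utf1 (chr7:139943606-139943905, plus): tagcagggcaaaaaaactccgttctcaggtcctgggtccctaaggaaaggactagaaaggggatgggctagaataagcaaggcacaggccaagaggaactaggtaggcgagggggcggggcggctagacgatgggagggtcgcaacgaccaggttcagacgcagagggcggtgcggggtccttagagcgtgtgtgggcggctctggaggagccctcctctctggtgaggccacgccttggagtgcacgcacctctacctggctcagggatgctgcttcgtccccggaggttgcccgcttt
Klf4 (chr4:55532426-55532725, minus): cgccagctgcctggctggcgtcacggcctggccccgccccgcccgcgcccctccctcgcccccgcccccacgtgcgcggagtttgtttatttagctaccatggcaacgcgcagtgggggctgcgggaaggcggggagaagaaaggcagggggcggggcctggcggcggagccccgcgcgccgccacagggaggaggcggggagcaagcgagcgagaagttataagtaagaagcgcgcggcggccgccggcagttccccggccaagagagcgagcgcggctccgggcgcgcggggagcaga

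The composite motif, to which POU and SOX factors bind side by side, stood 75 bases before the start in this Nanog promoter, and 12 of 32851 RefSeq promoters (0.0365%) held it. The octamer stood 186 bases before the Zfp42 start, and 570 promoters (1.74%) held it. The printed stretches hold 4 CG pairs in Nanog, 11 in Zfp42, 17 in Utf1 and 40 in Klf4, where the Klf4 count lies at percentile 96.5 of all promoters. The GC box GGGCGG was found in 6 of the 9 promoters of these genes and in 35.7% of all. Such matches describe the letters and are not evidence of binding.

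Set against all other cells of their own library, 9 of the 10 genes were at least 4-fold higher in germ cells at E11.5, where 4.86% of 12575 genes with at least 30 UMIs were, and the same count of 9 held at E12.5, where 6.47% of 13052 were. Klf4 was the exception on both days. The median log2 ratio of the 10 was 6.40 at E11.5 and 6.83 at E12.5, against -0.32 for all genes on both days. Nanog and Tdgf1 on both days and Sox2 at E12.5 met the minimum of 30 UMIs only through germ cells. The other cells held 3 to 25 UMIs of them. Klf4 at E11.5 met it only through other cells. The counts and medians of the 10 are therefore not read as a result. Pou5f1, Utf1, Zfp42, Dppa3, Dppa4 and Dppa5a had at least 30 UMIs in each group on both days. Together the 10 genes took 0.580% of germ cell UMIs at E11.5 and 0.778% at E12.5. In cells with a UMI of none of the 3 rule genes they summed to 79.9 CPM at E11.5, 75.9 at E12.5, 27.7 at E10.5 and 23.2 at D6. This second set of cells serves as the somatic reference below, since some cells with 1 rule gene looked like germ cells that the rule had missed.

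**Figure D1:**
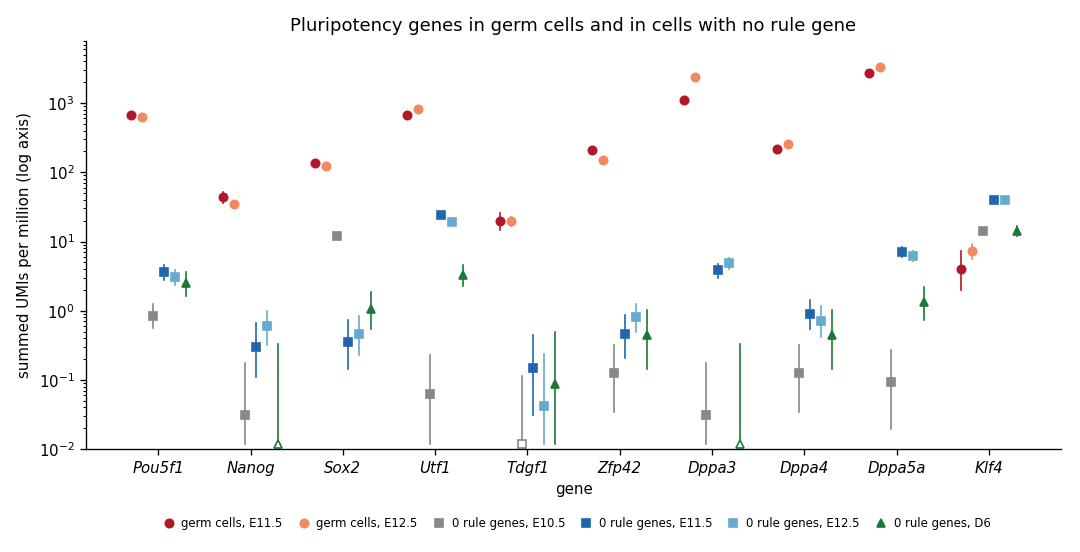
Summed CPM (log axis) of the 10 genes in germ cells of E11.5 and E12.5 (circles) and in cells with no rule gene of all 4 libraries (squares and triangles), where bars are 95% counting intervals and open symbols at the lower edge stand for 0 UMIs. For 9 genes the germ cell points lie above every other point, for Pou5f1 at 672 and 636 CPM against at most 3.58, whereas Klf4 lies below the other cells on both days.

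Pou5f1, the POU factor that pluripotent cells cannot do without, was at 672 CPM in E11.5 germ cells (interval 642 to 704, 1833 UMIs) and 636 at E12.5 (619.5 to 654, 5363 UMIs). It was detected in 98.0% and 99.8% of the germ cells. The E12.5 level was 0.946 times that of E11.5 (0.897 to 0.999), an interval that ends just under equality. Cell by cell the level was narrow, with the middle 80% of cells between 376 and 979 CPM at E11.5 and between 372 and 908 at E12.5. The 8 cells of E10.5 that met the rule had 141 UMIs, or 1150 CPM.

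Nanog, a homeodomain factor of the naive network, had few UMIs per cell. It stood at 44.0 CPM at E11.5 (36.5 to 52.6, 120 UMIs) and 34.8 at E12.5 (30.9 to 39.0, 293 UMIs). A UMI was found in 50.3% and 47.7% of germ cells, and no germ cell held more than 5. The ratio of the days was 0.790 (0.637 to 0.985). When each cell was thinned to 2000 UMIs the shares were 10.9% and 7.31%. At this depth a germ cell without a Nanog UMI cannot be told from one that did not express the gene.

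Sox2, the HMG-box partner of Pou5f1, was at 138 CPM at E11.5 (124 to 152) and 123 at E12.5 (115 to 130), and was detected in 81.9% and 84.5% of germ cells. The ratio of the days was 0.891 (0.791 to 1.01), an interval that includes equality. All 3 core factors were thus present in germ cells of both days, and none moved by as much as 2-fold between them. In the 8 E10.5 cells Sox2 was at 310 CPM and Nanog at 81.6 CPM.

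Utf1, a chromatin-associated factor of pluripotent cells, was at 679 CPM (649 to 711) at E11.5 and 809 (790 to 828) at E12.5, detected in 98.7% and 99.8% of germ cells. Its E12.5 level was 1.19 times that of E11.5 (1.13 to 1.25). The median germ cell had 641 CPM at E11.5 and 797 at E12.5.

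Zfp42 (Rex1), a zinc finger protein used as a mark of naive cells, was at 209 CPM (193 to 227) at E11.5 and 152 (144 to 160) at E12.5. It was detected in 89.9% and 90.2% of germ cells. The ratio of 0.725 (0.656 to 0.801) was the lowest of the 10 genes. Thinned to 2000 UMIs per cell, 34.0% of E11.5 and 27.9% of E12.5 germ cells held a UMI of Zfp42.

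Tdgf1 (Cripto), a co-receptor for the TGF-beta family ligand Nodal, was at 19.8 CPM at E11.5 (14.9 to 25.9, 54 UMIs) and 19.5 at E12.5 (16.6 to 22.7, 164 UMIs). It was detected in 26.8% and 29.9% of germ cells, with a ratio of 0.982 (0.718 to 1.36). Tdgf1 was accompanied by other genes of the Nodal pathway, of which 4 of the 10 that could be compared were at least 4-fold higher in germ cells than in other cells on both days, against 4.86% and 6.47% of all genes. Among them were Nodal itself, with 12.47 CPM on the first day and 7.24 on the second, and its inhibitors Lefty1 (58.0 and 107) and Lefty2 (145 and 181). A gene could meet the minimum of 30 UMIs through germ cells alone, so the count of 4 is not read further. The type I receptor Acvr1c was at least 4-fold lower on both days, and the transducer Smad3 at E11.5, against 18.7% and 21.7% of all genes. Of 9 pathway genes compared between the days, 0 moved by 2-fold in either direction, where 3.97% of all genes were higher and 2.58% lower.

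Dppa3 (Stella), a maternal and germline protein that shields DNA from loss and gain of methylation, was the gene of the 10 that differed most in level between the days. It was at 1120 CPM at E11.5 (1081 to 1161, 3054 UMIs) and 2413 at E12.5 (2380 to 2446, 20333 UMIs), a ratio of 2.15 (2.07 to 2.24) at percentile 96.9 of all genes compared. It was the only 1 of the 10 genes at least 2-fold higher at E12.5, where 3.97% of 9872 genes were, and 0 of the 10 were at least 2-fold lower, where 2.58% were. The spread between cells is given without correction for counting error. The median germ cell had 18 UMIs of Dppa3 at E11.5 and 46 at E12.5, so counting error widens the E11.5 spread more. The limits on cells also differed between the days, and no change in the spread of expression is read. At E11.5 the cell at the 90th percentile had 3.59 times the level of the cell at the 10th, and at E12.5 it had 2.09 times. The rule gene Dazl was 2.12-fold higher at E12.5 (1.98 to 2.26). Dazl helped to choose the cells on both days, so its fold is not read as a change or set beside that of Dppa3. The 8 E10.5 cells had 1680 CPM of Dppa3, between the values of the later days, so the 3 days gave no single order for this gene.

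Dppa4, a SAP-domain nuclear protein, was at 214 CPM (197 to 232) at E11.5 and 259 (249 to 270.5) at E12.5, a ratio of 1.21 (1.11 to 1.33). It was detected in 91.3% and 98.9% of germ cells. Dppa5a, a KH-domain RNA-binding protein found in early embryos, ESCs and primordial germ cells, was at 2700 CPM (2639 to 2762) and 3326 (3287 to 3365), a ratio of 1.23 (1.20 to 1.26). It was detected in 99.3% and 99.8% of germ cells, with up to 163 UMIs in a single cell at E11.5 and 230 at E12.5. The intervals of Dppa4, Dppa5a and Utf1 all lay above 1 and below that of Dppa3.

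Klf4, a Krüppel-like factor that belongs to the naive network of ESCs but also acts in epithelia, went the other way. In germ cells it had 11 UMIs at E11.5, or 4.04 CPM (2.01 to 7.22), and 61 at E12.5, or 7.24 CPM (5.54 to 9.30). It was detected in 7.38% and 13.2% of germ cells, with at most 3 UMIs in 1 cell. The other cells held 39.8 CPM on both days, so that Klf4 was 9.86-fold lower (5.48 to 19.8) in germ cells at E11.5 and 5.50-fold lower (4.25 to 7.25) at E12.5. Where 1 rule gene was enough for a germ cell, the log2 ratios were -0.88 and -1.61, short of 4-fold. At least 4-fold lower levels were seen for 18.7% and 21.7% of all genes. Whether free RNA of other cells gave the germ cell UMIs of Klf4 was not tested.

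**Figure D2:**
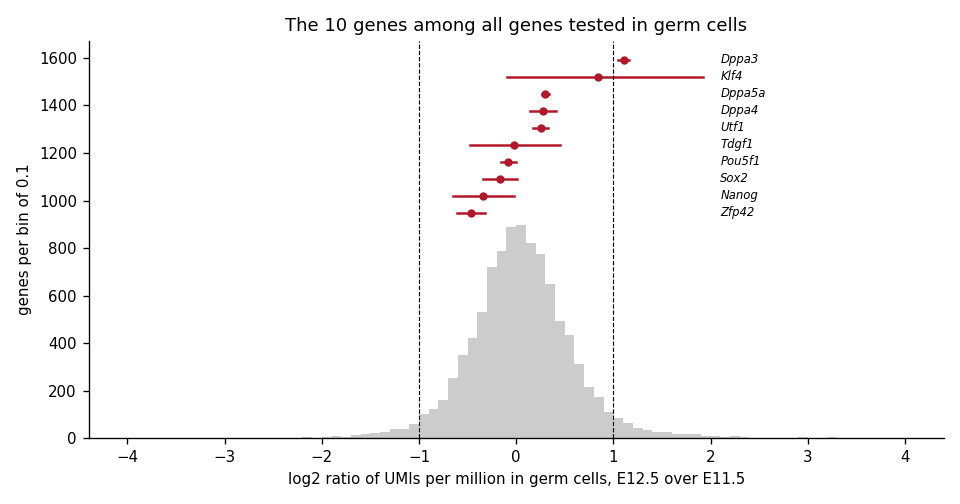
Log2 ratio of CPM in germ cells, E12.5 over E11.5, of the 10 genes (red points, bars are 95% counting intervals, stacked above the histogram and not read on the y axis) and of the 9872 genes compared (grey, number of genes per bin), with dashed lines at 2-fold. The interval of Dppa3, at a ratio of 2.15, lies past the line, and those of the other genes except Klf4 lie inside both lines.

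Most germ cells held most of the 10 genes at once. The median was 8 genes per cell on both days. At least 3 were detected in 148 of 149 germ cells at E11.5 (99.3%, interval 96.3 to 99.98) and in 437 of 438 at E12.5 (99.8%, 98.7 to 99.99). The remaining cell of each day held 0 of the 10. All 10 were seen in only 2 and 6 cells, since Klf4, Tdgf1 and Nanog were sparse. Each of the 8 germ cells of E10.5 held 6 to 9 of them, with Klf4 at 0 UMIs. Among cells with no rule gene, 1.40% at E11.5 and 0.976% at E12.5 held at least 3, with median depths of 11496 and 10022 UMIs.

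Pearson's r between some of the genes with many UMIs is given across all cells of a library that met the rule. Pearson's r of Dppa3 with Dppa5a was 0.64 over the 149 cells of E11.5 and 0.42 over the 438 of E12.5, and that of Pou5f1 with Dppa5a was 0.45 on both days. These cells share a library, and the values are a description of it. On each day they include 1 cell without a UMI of Dppa3, Dppa5a or Pou5f1. Whether r would hold without that cell was not tested, so no shared variation among germ cells is read from these values. For Nanog with Sox2 r was 0.06 and 0.17, on counts too sparse to read.

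**Figure D3:**
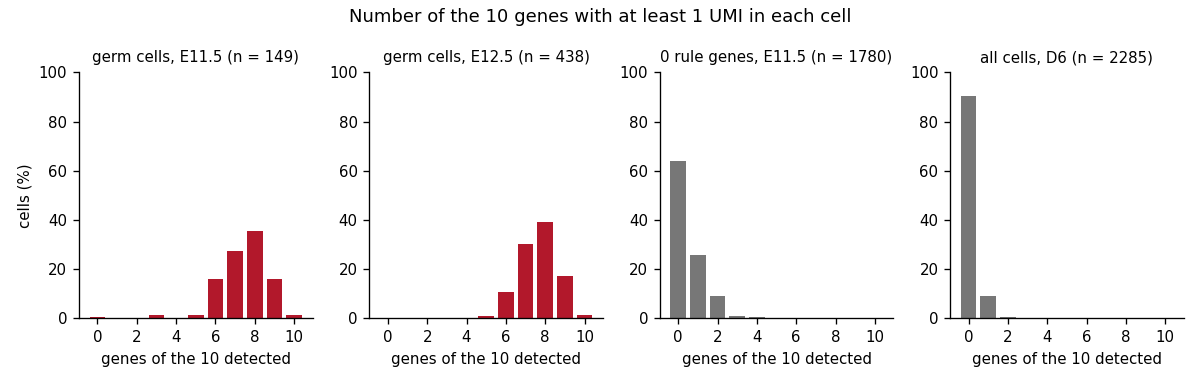
Share of cells (y axis, percent) by the number of the 10 genes with at least 1 UMI (x axis), for germ cells of E11.5 and E12.5, cells with no rule gene at E11.5 and all cells of D6. Germ cells gather at 6 to 9 genes with a median of 8, whereas most cells of the other panels hold 0 or 1.

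The 22 further genes of the naive pluripotency network summed to 1378 CPM in germ cells at E11.5 and 1211 at E12.5. In the other cells they summed to 118 and 124 CPM. Of these 22 genes 20 could be compared. In germ cells 17 were at least 4-fold higher than in other cells at E11.5 and 16 at E12.5, against 4.86% and 6.47% of all genes. Examples are the zinc finger factor Sall4 (167 CPM at E11.5 and 108 at E12.5), L1td1 (217 and 240), the DNA dioxygenase Tet1 (130 and 118), the threonine dehydrogenase Tdh (155 and 165) and Tcl1 (105 and 100.4). The orphan receptor Nr0b1 was at least 4-fold lower on both days and Tbx3 at E12.5. A gene could meet the minimum of UMIs through germ cells alone, so the counts of 17 and 16 are not read further. Fgf4, the growth factor gene that Pou5f1 and Sox2 control in ESCs, had 0 UMIs in all germ cells of both days, which allows up to 1.10 and 0.356 CPM.

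Between the days 0 of 18 of these network genes were at least 2-fold higher and 2 were at least 2-fold lower at E12.5, against 3.97% and 2.58% of all genes, so that with so few genes the counts are not read further. The latter were Tfcp2l1 (16.9 and 7.36 CPM), a factor of the naive state, and Tfap2c (46.6 and 23.1), the AP-2 factor of germ cell specification. The median log2 ratio of the 18 was -0.48, against 0.11 for the 10 genes and 0.04 for all genes. Lower at E12.5 without passing 2-fold were Prdm14 (17.2 and 12.46 CPM), Esrrb (19.8 and 13.9) and Lin28a (32.7 and 22.1).

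The 11 genes of the primed epiblast and primitive streak summed to 79.6 CPM in germ cells at E11.5 and 76.8 at E12.5, against 91.5 and 103 in the other cells. Of the 4 that could be compared at E11.5, 0 were at least 4-fold higher in germ cells, and at E12.5 the homeobox gene Otx2 was 1 of 6 (10.9 CPM), shares to be set against 4.86% and 6.47% of all genes. Fgf5, an epiblast growth factor, had 3 UMIs at E11.5 and 9 at E12.5. Genes of male germ cell differentiation had 9 UMIs in all at E11.5 and 60 at E12.5. Among them Nanos2, an RNA-binding protein of the male germline, had 0 UMIs in 149 cells and 13 in 438, levels of 0 and 1.54 CPM whose intervals (up to 1.35, and 0.821 to 2.64) overlap.

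Outside germ cells most of the 10 genes were set beside other germ cell genes, each as a percent of its own germ cell level. In E11.5 cells with no rule gene, the level of the 8 genes with enough germ cell UMIs was a median 0.383% of the germ cell level (0.216% to 3.53%), and 9 genes of the germ cell list had a median of 0.479% (0.118% to 5.92%). At E12.5 the medians were 0.380% over 9 genes (0.189% to 2.33%) and 0.727% over 15 (0.202% to 9.88%). The highest of the germ cell list was Nanos3 on both days. Whether free RNA of germ cells gave these traces was not tested. Of the genes with at least 100 germ cell UMIs, which leaves out Klf4 on both days and Tdgf1 at E11.5, Utf1 was the highest, at 3.53% (3.19 to 3.91) and 2.33% (2.11 to 2.57).

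**Figure D4:**
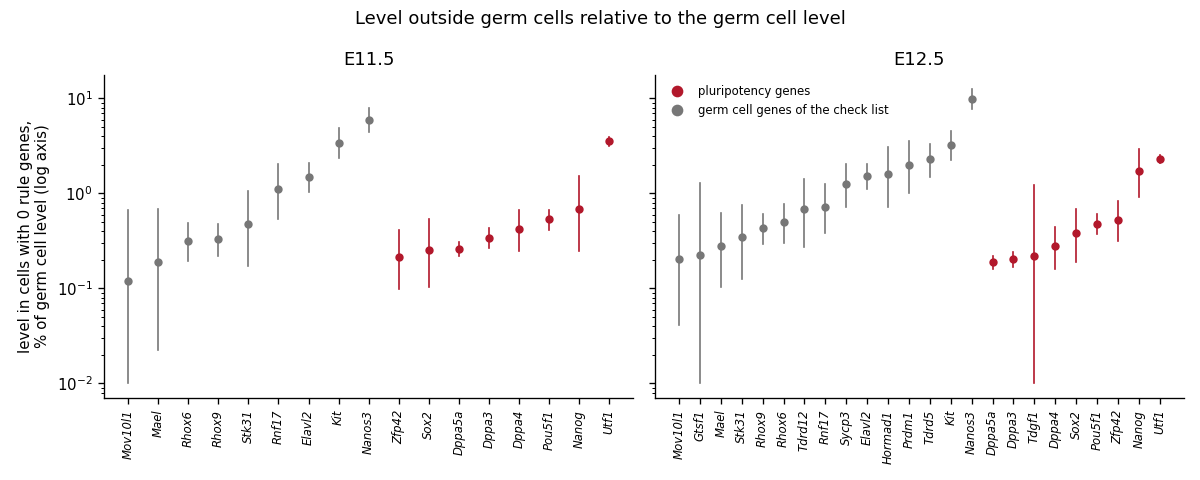
Level in cells with no rule gene as a percent of the germ cell level (log axis) at E11.5 and E12.5, for the pluripotency genes (red) and the germ cell list (grey) with at least 100 germ cell UMIs, with 95% counting intervals. Most genes lie between 0.1% and 2%, and Utf1, at 3.53% and 2.33%, lies above the other pluripotency genes plotted.

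Utf1 in these cells was gathered in supporting cells. Supporting cells, the lineage of Sertoli and granulosa cells, were taken as cells with no rule gene and at least 3 of 7 supporting markers. They held 70.0 CPM of Utf1 at E11.5 (62.9 to 77.7) and 62.0 at E12.5 (56.0 to 68.6), with a UMI in 33.7% of 424 and 37.5% of 531 cells. Interstitial cells, set by 3 of 6 markers, had 4.27 and 3.01 CPM, and endothelial cells had 1.02 and 0. Supporting cells were 23.8% of the E11.5 and 24.7% of the E12.5 cells with no rule gene and held 75% and 85.4% of the Utf1 UMIs. The median depth was 12540 UMIs in supporting and 12730 in interstitial cells at E11.5, so that depth was alike there.

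The same gathering was seen in the ESC-derived library. At D6 the 63 supporting cells had 28 of the 37 Utf1 UMIs, or 66.5 CPM (44.2 to 96.2), against 0.792 in 919 interstitial cells. Over all cells with no rule gene Utf1 was lower at D6, at 3.27 CPM against 24.0 (E11.5) and 18.9 (E12.5), and supporting cells were only 2.88% of those D6 cells. The D6 gate level lay within the intervals of the embryonic ones.

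Pou5f1 did not show this pattern. It was at 3.14 CPM in supporting, 2.76 in interstitial and 2.03 in endothelial cells at E11.5, with a UMI in 3.77%, 3.55% and 3.08% of those cells. At E12.5 supporting and interstitial cells had 2.45 and 2.47 CPM. The shares were alike across the 3 classes, and no expression is read from them.

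Klf4 was also higher in supporting cells. It was at 110 CPM there on both days (101 to 119 at E11.5 and 102 to 119 at E12.5), in 56.1% and 56.9% of the cells. Interstitial cells had 12.8 and 15.5 CPM, coelomic epithelial cells 12.48 and 22.6, and endothelial cells 14.2 and 32.7. At D6 supporting cells had 52.3 CPM (32.8 to 79.2) and interstitial cells 11.1, the order seen in vivo. At E10.5, where only 4 supporting cells were found, Klf4 was at 59.9 CPM in 78 cells with gut endoderm markers and at 14.4 over all cells with no rule gene.

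Sox2 outside germ cells belonged to another tissue. At E10.5 it was at 12.0 CPM in cells with no rule gene, against 0.353 at E11.5 and 0.466 at E12.5. Of its 384 UMIs there, 74.0% lay in the 4.42% of cells with at least 3 neural markers, which held 196 CPM (174 to 220) and had a UMI in 53.9%. Gut endoderm cells had 61.7 CPM (42.7 to 86.3). Sox2 is a known gene of the neural tube and foregut, and the list of neural markers does not contain it.

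**Figure D5:**
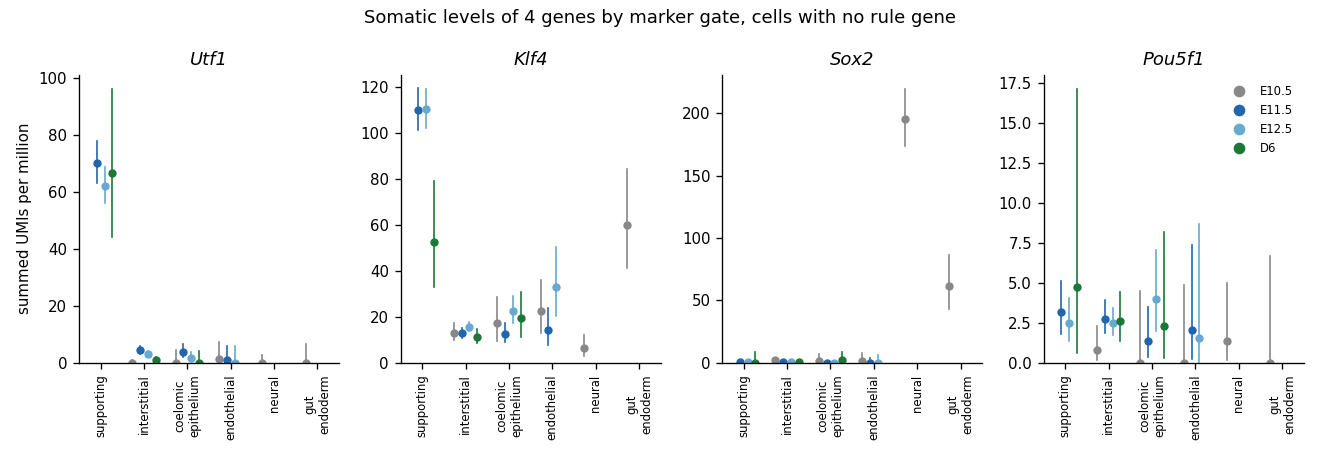
Summed CPM (linear axes, 1 scale per panel) of Utf1, Klf4, Sox2 and Pou5f1 in cells with no rule gene, by marker-defined cell class and library, with 95% counting intervals, classes under 30 cells left out. Utf1 and Klf4 are highest in supporting cells, Sox2 in neural cells of E10.5 at 196 CPM, and the Pou5f1 intervals overlap across classes.

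The D6 library was searched for cells that still carried the network. It was enriched for Nr5a1 reporter cells, so shares of it are not shares of the culture. None of the 3 cells that met the germ cell rule held a UMI of any of the 10 genes. Of the 2285 D6 cells, 2064 held 0 of the 10 genes, 210 held 1 and 9 held 2. At least 3 were found in 2 cells, or 0.0875% (interval 0.0106 to 0.316), and both of these cells held 6. The count was 4 without the limits on cells and 1 with each cell thinned to 2000 UMIs. In comparison, cells outside the rule gave 1 such cell of 3829 at E10.5, 65 of 1952 at E11.5 and 31 of 2326 at E12.5. Those cells were deeper than the D6 cells. Thinned to 2000 UMIs they gave 1 of 3823 at E10.5, 30 of 1745 at E11.5 and 9 of 2326 at E12.5. The E10.5 cell had 1 rule gene and 7 genes of the germ cell list. Of the E10.5 cells with no rule gene, 0 of 3778 held at least 3. In D6 cells with no rule gene the 22 further naive genes summed to 366 CPM, against 110 to 123 in the embryonic libraries. At least 3 of the 22 were detected in 5.49% of those D6 cells, against 4.63% to 5.73%. The 11 epiblast and primitive streak genes summed to 195 CPM, against 91.7 to 124, with at least 3 in 0.457% against 2.08% to 2.37%. Why these sums were higher at D6 was not tested.

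The first of the 2 cells had 10733 UMIs, with 1 of Pou5f1, 2 of Nanog, 1 of Sox2, 3 of Utf1, 1 of Zfp42 and 13 of Dppa5a. It also had 4 UMIs of Fgf4, which had none in any germ cell of E11.5 or E12.5, 5 of Tfap2c and 14 of Jarid2, a gene with a UMI in 61.0% of the D6 cells without a rule gene. Of the germ cell list it had 1 UMI each of Stk31, Taf7l, Rhox6 and Kit. The second had 5124 UMIs, with 1 of Pou5f1, 2 of Sox2, 3 of Utf1, 3 of Zfp42, 1 of Dppa3 and 39 of Dppa5a. It also had 3 UMIs each of Tet1 and Sycp3, a meiotic axis protein, and 2 each of the piRNA pathway gene Rnf17 and of Rhox6, and 1 each of Mael, Stk31 and Rhox9. Of the 3 rule genes both had Dazl alone, and neither was marked as a doublet. What kind of cell they are was not tested.

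These 2 cells carried much of what the D6 library held of some genes. They had 52 of the 69 Dppa5a UMIs of the D6 cells outside the rule (75.4%), both Nanog UMIs and the only Dppa3 UMI. They had 4 of the 10 Zfp42, 3 of the 15 Sox2 and 6 of the 46 Utf1 UMIs, and 0 of those of Klf4, Dppa4 and Tdgf1. They had 2 of the 32 Pou5f1 UMIs. The other Pou5f1 UMIs lay singly in 30 cells, and of all 32 cells with Pou5f1, 1 held Nanog, 2 held Sox2 and 2 held Dppa5a.

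Pou5f1 at D6 thus remained as single UMIs. In cells with no rule gene it was at 2.47 CPM (1.64 to 3.58), in 28 cells with 1 UMI each, against 0.847 in the E10.5, 3.58 in the E11.5 and 3.05 in the E12.5 library. Its ratio to Dppa5a is given beside that of germ cells. Germ cells had 24.9 Pou5f1 UMIs per 100 of Dppa5a at E11.5, 19.1 at E12.5 and, in 8 cells, 42.3 at E10.5, whereas cells with no rule gene had 50.7 and 48.6 on the later days. At D6 there were 28 Pou5f1 UMIs against 15 of Dppa5a, and at E10.5 27 against 3. The source of these Pou5f1 UMIs was not tested.

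Between the D6 and E12.5 cells with no rule gene, 5 of the 10 genes had at least 30 UMIs over both. Of these 3 were at least 4-fold lower at D6, where 2.80% of 13399 genes were, and the median log2 ratio of all genes was 0.35. Dppa3 and Dppa5a, with 0 and 15 UMIs at D6, reached the minimum of 30 only through E12.5. The count of 3 is therefore not read as a result. Utf1 was 5.77-fold lower (4.12 to 8.31) and Dppa5a 4.73-fold lower (2.78 to 8.67). Dppa3 had 0 UMIs at D6 against 115 and was at least 18.4-fold lower, taking 3 UMIs for the D6 library. Klf4 was 2.84-fold lower and the Pou5f1 interval included equality. Supporting cells, where Utf1 and Klf4 were higher, were 2.88% of the D6 and 24.7% of the E12.5 cells with no rule gene. Within the supporting cells the D6 level of Utf1 lay inside the embryonic intervals and that of Klf4 lay below them, as given above. Whether the share of supporting cells bears on the folds of Utf1 and Klf4 was not tested. In the E12.5 library 15.8% of cells were germ cells (14.5 to 17.3). At D6 3 cells met the rule, none with a UMI of the 10 genes. Whether the germ cell share bears on these folds was not tested. It cannot be told apart from strain, culture, enrichment and chemistry.

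Some cells that missed the rule looked like germ cells by these genes. At E11.5, 40 of 172 cells with 1 rule gene and 25 of 1780 with none held at least 3 of the 10. At least 3 genes of the germ cell list were found in 21 of the 40 and 1 of the 25. At E12.5 the counts were 10 of 175 (8 with the germ cell list) and 21 of 2151 (1). The 65 cells of E11.5 were picked by the 10 genes themselves, so high shares of their UMIs follow in part from the choice. These cells held 70.7% of the Pou5f1 and 82.3% of the Dppa5a UMIs of all E11.5 cells outside the rule. They held 25.3% of Utf1 and 6.20% of Klf4. Dppa5a was at 30.8 CPM in all other cells at E11.5 and 26.6 at E12.5, against 7.05 and 6.27 in cells with no rule gene. Its folds in germ cells against cells with no rule gene, 383 at E11.5 and 530 at E12.5, are therefore higher than those against all other cells.

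Genes whose level followed that of Pou5f1 most closely were named by Pearson's r of log2(CPM + 10) over 6 groups, the germ cells of E11.5 and E12.5 and the other cells of the 4 libraries. Among 2461 genes with at least 100 CPM in some group these were Rpl39l (r = 0.9991), Glrx2 (0.9990) and Gm48168 (0.9985), with Dppa4 in rank 4. The 6 points are 2 germ cell groups against 4 others, so any germ cell gene comes near 1. Rpl39l, a germline form of a ribosomal protein gene, was at 438 and 371 CPM in germ cells and at 0.0841 to 3.24 elsewhere. Klf4 had an r of -0.74 with Pou5f1. Among genes outside the 10, their sum was followed most closely by Ubfd1 (r = 0.9991), Atp5g1 (0.9956) and the X-linked homeobox gene Rhox5 (0.9955). Rhox5 was at 649.7 and 675 CPM in germ cells and at 2.04 to 12.4 elsewhere. A high r did not mean that a gene was confined to germ cells. Ubfd1 was at 107 and 108 CPM there and 73.0 to 80.2 elsewhere, and Atp5g1 at 1493 and 1619 against 480 to 670. Glrx2 was at 373 and 351 against 61.4 to 81.7.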

How the data were processed

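The authors deposited, for each of the 4 libraries, a matrix of raw UMI counts per gene and cell barcode that Cell Ranger made against mm10. The submitters' processing notes give version 3.0.2 and the file headers 6.0.0. Nothing else was normalized before deposit. The study's limits were applied per library, on genes over and under and on percent of UMIs from 13 mitochondrial genes under: 1000, 4000 and 10 (E10.5), 500, 5000 and 20 (E11.5), 2000, 5000 and 8 (E12.5) and 1000, 4000 and 12 (D6).

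Summed UMIs of a set of cells were scaled to 1000000 (CPM), with exact intervals at the 95% level from scipy 1.17.1 under Python 3.11.15. A count of 0 was taken to allow 3. Germ cells held at least 2 of 3 rule genes, and cell classes were set by at least 3 markers of a list among cells with no rule gene. Genes with at least 30 UMIs over both groups were compared, at 4-fold between cell types and 2-fold between days. No test was made, since each condition is 1 library. Doublets were marked with Scrublet in scanpy 1.11.5 (135, 18, 27 and 45 cells) and kept, and removed in an alternative. Cells were thinned to 2000 UMIs to compare shares. The ratio and interval steps were tested on simulated data. Another scaling used edgeR 4.0.16 (TMM), and near copies were sought with blastn 2.17.0. Of the gene identifiers 31011 of 31053 were found in the annotation.

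The genes and lists were chosen with earlier results of these data known. The named genes are the 10, the 3 rule genes, genes of the lists of naive pluripotency, epiblast, Nodal pathway, male germ cell and cell type markers, and the 3 genes most like Pou5f1 and most like the sum of the 10. Which list genes serve as examples, and the 2 D6 cells, were chosen after their values were seen. No column of another sample was present.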

Additional observations from a re-analysis of the deposited data

Results flagged for a closer look

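Barcodes outside the study's limits on genes and mitochondrial reads, which the report does not use, held further cells that met the germ cell rule. At E11.5 there were 18, or 10.8% of the 167 barcodes of the library that met the rule, of which 17 exceeded the upper limit on genes and 16 held at least 3 of the 10 genes. At E12.5 there were 58, or 11.7% of 496, of which 51 exceeded the upper limit and 57 held at least 3. Their levels at E11.5 and E12.5 were 540 and 554 CPM for Pou5f1, 852 and 2034 for Dppa3, 2407 and 3042 for Dppa5a and 15.3 and 11.9 for Klf4. Their part in the values of the report is given by the alternative without limits.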

How the results depend on the processing

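Each value was recomputed with no limits on cells, with common limits, without doublets, under TMM scaling, with stricter or looser germ cell rules, at thinned depth and with other minimum counts. Of 67 counts and shares 59 moved by less than 1.5-fold or their interval and 8 moved further, and of 318 ratios of the 10 genes 236 stayed within their interval, 82 moved, and in 0 did a called difference change sign. The number of D6 cells with at least 3 of the 10 genes was 4 without limits, 1 at 2000 UMIs per cell, and 11 where 2 genes were enough. Germ cells with at least 3 of the 10 genes were 100% on both days where all 3 rule genes were needed, and 58.6% and 72.9% where 1 was enough. At 2000 UMIs per cell they were 97.7% at E12.5. The log2 ratio of Dppa3 between the days ran from 1.07 to 1.53 and that of Zfp42 from -0.54 to -0.05 over 10 alternatives. Pou5f1, Nanog and Sox2 were below 0 in 9 of 10 and Klf4 ran from -0.70 to 0.97 over 9. With 1 rule gene enough, Klf4 was no longer 4-fold lower in germ cells, at log2 ratios of -0.88 (E11.5) and -1.61 (E12.5), whereas the other 9 genes kept at least 4-fold under every alternative that gave a value. TMM moved the median of all genes at E12.5 from -0.32 to -0.21. No paired analysis was possible because each condition is 1 library, and for that reason no replicate could be left out. Depth limits Nanog, Tdgf1 and Klf4 most.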
